A study of Homo sapiens with 9 samples.

Results

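The comparison followed the hypoxia response inside cells depleted of NDRG3, from 6 h to 12 h in 1% oxygen. It rests on 2 of the 9 arrays of the series, those titled shNDRG3 in hypoxia at 12 h and at 6 h, taken from a gene-level table of 18153 genes. Both hold total RNA of cells labelled Huh-7, an established human liver cancer line, made to express a hairpin against NDRG3 (shNDRG3) from an integrated lentivirus. The same interval in Huh-7 cells with a hairpin against GFP (shGFP, 6 h and 12 h in 1% oxygen) was measured on separate arrays of the same platform and served as the control interval. An array of shGFP cells in normoxia gave the starting level, and an array of shHIF1A cells at 12 h was used for single values. A shNDRG3 array in normoxia was not used here, so a difference from the normoxia array holds the hairpin and hypoxia together. The labels do not say whether a line is 1 clone or a pool, and each condition is 1 array, so a single difference cannot be set against replicates, and precision is limited by how few arrays there are.

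NDRG3 belongs to the N-myc downstream-regulated gene family. Its protein is hydroxylated and degraded when oxygen is plentiful, and in hypoxia it is stabilised by binding lactate and promotes RAF-ERK signalling. The faster arm of the oxygen response is run by the hypoxia-inducible factors HIF-1 and HIF-2, whose alpha subunits escape degradation within minutes to hours and switch on genes for glycolysis, pH control, angiogenesis and matrix. Longer oxygen shortage also engages the integrated stress response, in which phosphorylated eIF2 alpha slows general translation while ATF4 and CHOP (DDIT3) are made, and it restrains the costly production of ribosomes and the passage through mitosis. Whether the early and the later programmes meet between 6 h and 12 h was not tested.

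Intensities are given on the linear scale the authors deposited, and every difference is of log2(intensity + 32), 12 h minus 6 h, called a step below. A step of 1 is a 2-fold change on that scale, which understates the change of dim genes. Genes were kept where any array compared reached 127.3, the 40th percentile of intensity. The shNDRG3 step alone carries no test. The words rose and fell are kept for genes that passed limma (Benjamini-Hochberg adjusted p under 0.05 over 11825 genes) in an additive fit of line and time to the 4 arrays of shGFP and shNDRG3 cells at 6 h and 12 h. In that fit the 2 lines stand in for replicates, 1 residual degree of freedom is left, and the p-values lean on variance pooled over genes (prior degrees of freedom 23.7). They set the mean step of 2 lines, 1 culture each, mostly against a spread between lines that is pooled over genes. A gene could pass with unlike steps, as IFI16 did (-0.90 in shNDRG3 and -0.08 in shGFP cells). Rose and fell therefore do not say that both lines moved alike. Genes named for a large shNDRG3 step were favoured to pass, since that step is part of the fit. Handling shared by both 12 h arrays cannot be told apart from time.

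The hairpin's target was low throughout. NDRG3 intensity was 268 at 6 h and 215 at 12 h in shNDRG3 cells, against 1278 and 1456 in shGFP cells and 1187 in shGFP normoxia. Both shNDRG3 values lay below every other array of the platform. The NDRG3 step was -0.28 in shNDRG3 and 0.18 in shGFP cells, and it did not pass (limma adjusted p = 0.786). Hepatocyte genes were mostly near background: 2 to 6 of 24 lay over the filter value on any array of the platform, ALB lay between 160 and 229 on all 9 arrays, and CPS1, a urea cycle gene, was high in shNDRG3 cells (25121 at 6 h, 28731 at 12 h). Among 19 markers of other cell types, 5 to 8 exceeded the filter value on a given array, and their summed intensity was 33235 and 38676 in shNDRG3 cells and 35258 and 38410 in shGFP cells at 6 h and 12 h. KRT17, a keratin gene (17544 and 22412 in shNDRG3 cells), and VIM, the vimentin gene (13142 and 13913), made up most of these sums and did not pass (limma adjusted p = 0.101 and 0.262). Of the 8 tested, COL1A1, a collagen gene, fell, from 432 to 229 in shNDRG3 cells, and 0 rose (limma). The leukocyte marker PTPRC was at 98 and 92, under the filter value. The identity of the cultures was not tested, and Huh-7 is the labels' name for them. The part of these markers in the steps was not tested.

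Between 6 h and 12 h, few genes differed by 2-fold in shNDRG3 cells. Of 11344 genes over the filter, 34 (0.3%) were at least 2-fold higher at 12 h and 23 (0.203%) at least 2-fold lower, 57 (0.502%) in all. At 1.5-fold the counts were 246 (2.17%) and 275 (2.42%), 4.59% together, at 1.2-fold 14.4% of genes were higher and 14.4% lower (28.8% together), and the SD of the step over genes was 0.28. In shGFP cells 28 genes (0.246% of 11372) were 2-fold higher and 15 (0.132%) lower, 0.378% together, and at 1.5-fold 2.32% were higher and 2.08% lower, 4.4% together. The higher genes included the hypoxia-inducible LOX, the stress genes GDF15, PPP1R15A and DDIT3 and the AP-1 gene JUN, and the lower genes included the ribosome assembly genes RRS1 and NOP16, the polyamine gene ODC1 and the mitosis genes CDC20 and PLK1. In limma over both lines 1502 genes rose (12.7% of 11825) and 1474 fell (12.5%), 25.2% together, and 4191 (35.4%) had an unadjusted p under 0.05. The counts of each gene list stand against that background.

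Every one of the 57 genes had a step of the same direction in shGFP cells. Of the 34 higher genes, 31 were at least 1.5-fold higher and 11 at least 2-fold higher there, so the shared genes were 32.4% of the shNDRG3 list and 39.3% of the shGFP list. Of the 23 lower genes, 22 were at least 1.5-fold lower and 11 at least 2-fold lower in shGFP cells, 47.8% of one list and 73.3% of the other. Each list was weaker in the line that did not choose it. The 34 genes had a median step of 1.13 in shNDRG3 and 0.90 in shGFP cells, while the genes 2-fold higher in shGFP cells had 1.12 there and 0.91 in shNDRG3 cells. The lower genes had -1.12 in shNDRG3 and -0.98 in shGFP cells, and those chosen in shGFP cells -1.15 and -1.03. Across 11825 genes, which are not independent replicates and share platform and normalization, the steps of the 2 lines had a Pearson r of 0.73 and a Spearman rho of 0.65. The 2-fold line is not a natural boundary: HDAC6, MUC16 and SNAI2 lay just inside it at 1.01 and PTPRH and P4HA1 just outside at 1.00 and 0.99, while CCNB1 (-1.01) lay just inside and SRSF3 (-0.99) just outside.

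**Figure D1:**
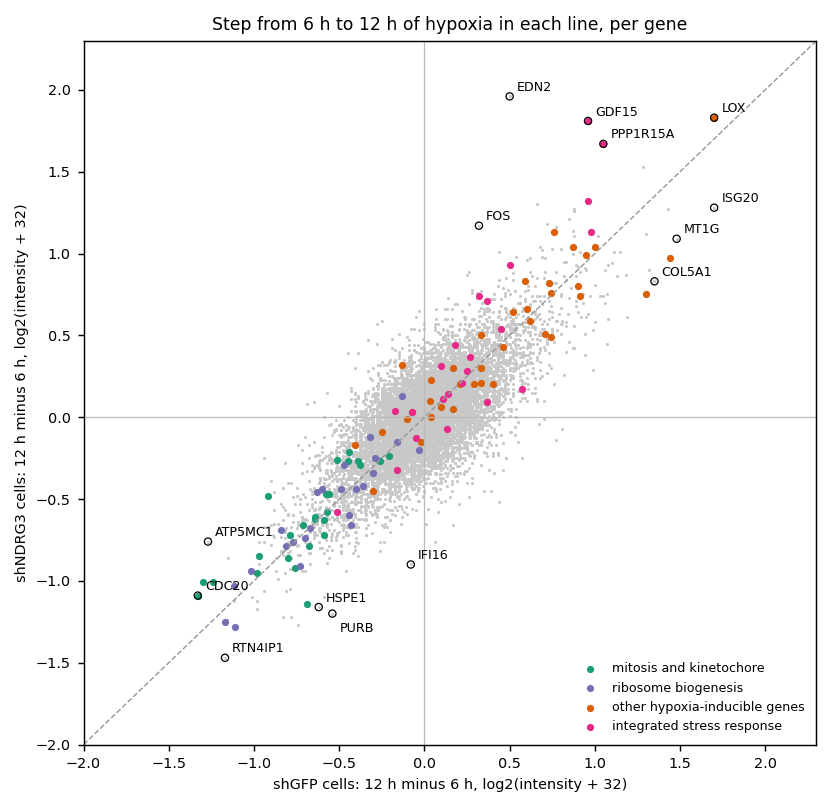
Each point is a gene, with its 12 h minus 6 h step in shGFP cells on the x axis and in shNDRG3 cells on the y axis, both of log2(intensity + 32); colours mark 4 gene lists, circles mark named genes and the dashed line marks equal steps. Most points lie along the dashed line (r 0.73), mitosis and ribosome biogenesis genes lie in the lower left, and EDN2 (1.96 against 0.50) stands farthest above the line.

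Most hypoxia-inducible genes rose between 6 h and 12 h. Of 37 such genes tested, 22 rose and 2 fell (DDIT4 and BHLHE41) in limma, and the list's median step was 0.43 in shNDRG3 and 0.40 in shGFP cells, against 0 over all genes. The BHLHE41 call was lost under an alternative (highest limma adjusted p = 0.105). LOX, which cross-links collagen and elastin, went from 2936 at 6 h to 10522 at 12 h in shNDRG3 cells and from 1752 to 5764 in shGFP cells, with 279 in shGFP normoxia. It rose by 1.76 (SE 0.09, limma adjusted p = 3.55e-12), with steps of 1.83 and 1.70 in shNDRG3 and shGFP cells. Both 12 h levels lay above both 6 h levels. ANKRD37, an ankyrin repeat gene induced by HIF-1, went from 5057 to 11125 (step 1.13; 0.76 in shGFP cells). IGFBP3, a carrier of insulin-like growth factors, went from 9642 to 19902 (1.04 and 1.00), and ERO1A, the oxidase that drives disulphide formation, from 2593 to 5368 (1.04 and 0.87). All 3 rose.

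Other members had smaller steps or steps below 0. ADM, a vasoactive peptide gene, was at 32919 and 37863 (0.20, limma adjusted p = 0.0524), and NDRG1, a relative of NDRG3, was at 28731 and 38770 against 3344 in normoxia and rose by 0.44 (SE 0.09, limma adjusted p = 0.00079). BNIP3, a mitophagy receptor, went from 22000 to 33024 and rose, whereas DDIT4, an inhibitor of mTORC1, went from 31705 to 23188 and fell. The oxygen-sensing hydroxylases EGLN1 (1350 and 1270) and EGLN3 (802 and 832) did not pass. Against shGFP normoxia the list's median was 1.72 at 6 h and 2.14 at 12 h in shNDRG3 cells, and 1.56 and 2.28 in shGFP cells, which share that normoxia array. On the shHIF1A array at 12 h it was 1.55.

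The promoters of ANKRD37 and LOX are shown because these genes had the largest steps of the list and hold core letters of the hypoxia response element. Each is the RefSeq window of 300 bases around the gene's start, on GRCh38.p14: chr4:185396591-185396890 (plus strand) for ANKRD37 and chr5:122078210-122078509 (minus strand) for LOX. Capitals mark ACGTG or GCGTG on either strand (CACGT or CACGC as printed), and a CACGTG holds ACGTG on both strands.
ANKRD37: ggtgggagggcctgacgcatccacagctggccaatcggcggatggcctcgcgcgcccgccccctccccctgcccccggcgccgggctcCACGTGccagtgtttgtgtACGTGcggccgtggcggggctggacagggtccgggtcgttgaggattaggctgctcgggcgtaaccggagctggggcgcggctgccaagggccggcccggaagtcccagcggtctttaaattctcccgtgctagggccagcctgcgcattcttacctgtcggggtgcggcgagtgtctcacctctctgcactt
LOX: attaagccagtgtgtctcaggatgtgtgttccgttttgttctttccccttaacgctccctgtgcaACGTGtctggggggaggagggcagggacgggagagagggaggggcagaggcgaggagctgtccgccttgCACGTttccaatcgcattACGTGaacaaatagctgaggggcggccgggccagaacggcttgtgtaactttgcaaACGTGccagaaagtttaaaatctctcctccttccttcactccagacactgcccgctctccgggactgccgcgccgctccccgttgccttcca
ACGTG on either strand was found in 19 of the 30 list promoters at hand (63.3%) and in 26.9% of the promoters of 8909 genes over the filter. ACGTG or GCGTG was found in 86.7% and 62.7%. Of the 2-fold higher genes, 30 of 34 had a promoter, 66.7% of them with either core, and of the 2-fold lower genes, 18 of 23, with 77.8%. ACGTG alone was found in 40% of the promoters of the higher genes and 38.9% of those of the lower genes. One core or the other thus stood in most promoters of every set, and a match is a description of letters, not a binding site.

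Glucose uptake and glycolysis genes rose in part. Of 23 tested, 14 rose and 1 fell (PFKM) in limma, with a median step of 0.33 in shNDRG3 and 0.39 in shGFP cells. ALDOC, the brain-type aldolase gene, went from 4830 to 10483 in shNDRG3 cells and from 5030 to 10200 in shGFP cells (658 in normoxia), and it rose by 1.06 (SE 0.09, limma adjusted p = 1.12e-08). The enolase gene ENO2 went from 2634 to 5425, and the phosphoglycerate kinase gene PGK1 from 15338 to 27789, and both rose. HK1, a hexokinase gene, rose too, from 770 to 1430 (0.87; 1.18 in shGFP cells). By contrast the step was 0.01 for GAPDH (30774 and 30946) and for LDHA, which makes lactate dehydrogenase A (33597 and 33897), 0.07 for ENO1 and 0.04 for PGAM1, and none of these 4 passed. SLC2A1, a glucose transporter gene, was at 9362 and 11746 (0.33) in shNDRG3 cells with 0.01 in shGFP cells and did not pass (limma adjusted p = 0.232).

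Transcripts of the oxygen-sensing machinery had small steps (-0.31 to 0.39 in shNDRG3 cells), and protein was not measured. HIF1A was at 805 at 6 h and 1065 at 12 h in shNDRG3 cells, against 824 and 897 in shGFP cells (steps 0.39 and 0.12), and its limma adjusted p was 0.0535, short of the threshold. The HIF-2 alpha gene EPAS1 was at 6628 and 7240 in shNDRG3 cells, with a step of 0.13 (limma adjusted p = 0.213). In shGFP cells EPAS1 was at 3757 and 4318, with 2969 in normoxia. Its level was thus higher in shNDRG3 than in shGFP cells at both times (by 0.81 and 0.74), which was not tested. Of 11 HIF subunits and oxygen sensors tested, ARNT2, a partner subunit, and SIAH1, a ubiquitin ligase gene, rose and 0 fell. The SIAH1 call was lost under an alternative setting (highest limma adjusted p = 0.0503), and ARNT2 was dim, at 183 and 214. The 4 NDRG family genes had steps from -0.28 (NDRG3) to 0.43 (NDRG1), and NDRG1 was the 1 that rose.

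Collagen-modifying and matrix genes, some of which are also in the hypoxia-inducible list, rose in part. Of 23 tested, 12 rose and 1 fell (COL1A1) in limma, with a median of 0.30 in shNDRG3 and 0.33 in shGFP cells. The collagen prolyl hydroxylase genes P4HA1 (1810 to 3631) and P4HA2 (1236 to 2170) and the lysyl hydroxylase gene PLOD2 (5375 to 9571) rose. ITGA5, the alpha subunit of the fibronectin receptor, went from 6457 to 12132 (0.91; 0.94 in shGFP cells) and rose. COL5A1, a minor fibrillar collagen gene, rose from 4868 to 8682 in shNDRG3 cells, with a smaller step (0.83) than in shGFP cells (1.35, from 3038 to 7783). Its 12 h levels were close in the 2 lines and its 6 h level was higher in shNDRG3 cells.

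Integrated stress response genes held 2 of the 4 largest steps of the knockdown line. Of 23 genes tested, 12 rose and 1 fell (SLC7A11, the cystine transporter) in limma, with a median of 0.28 in shNDRG3 and 0.25 in shGFP cells. GDF15, a stress-induced secreted factor, went from 1586 to 5643 in shNDRG3 cells and from 2253 to 4411 in shGFP cells, with 672 in normoxia, and it rose by 1.39 (SE 0.13, limma adjusted p = 2.01e-08). Its step was 1.81 in shNDRG3 and 0.96 in shGFP cells: shNDRG3 cells were below shGFP cells at 6 h and above them at 12 h. PPP1R15A (GADD34), which guides the phosphatase that reverses eIF2 alpha phosphorylation, was at 1669 and 5371 in shNDRG3 cells, at 1311 and 2752 in shGFP cells and at 1291 in normoxia. It rose by 1.36 (SE 0.11, limma adjusted p = 5.36e-09). The shNDRG3 array at 12 h was the highest of the platform.

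DDIT3 (CHOP), a pro-apoptotic transcription factor of this response, went from 1539 to 3878 (1.32; 0.96 in shGFP cells) and rose. ASNS, the asparagine synthetase gene and a classic target of ATF4, went from 2903 to 6397 (1.13; 0.98) and rose. ATF3 (395 to 782), the pseudokinase gene TRIB3 (2887 to 4737) and the serine synthesis gene PHGDH (16841 to 24549) rose as well, while ATF4 itself, which is controlled largely by translation, was at 7553 and 7691 (limma adjusted p = 0.883). Endoplasmic reticulum chaperone genes did not move as a group: 2 rose (PDIA4 and EDEM1) and 3 fell (DNAJC3, SDF2L1 and DNAJB11) of 16, with a median of 0.05. The calls of PDIA4, DNAJC3 and DNAJB11 were lost under an alternative setting, with highest limma adjusted p-values of 0.0567, 0.0786 and 0.0993. The ASNS promoter, chr7:97872359-97872658 (minus strand) on GRCh38.p14, is shown because its stress element was found by letters; capitals mark TGATGNAA, the composite ATF4 and C/EBP letters, searched on both strands.
ASNS: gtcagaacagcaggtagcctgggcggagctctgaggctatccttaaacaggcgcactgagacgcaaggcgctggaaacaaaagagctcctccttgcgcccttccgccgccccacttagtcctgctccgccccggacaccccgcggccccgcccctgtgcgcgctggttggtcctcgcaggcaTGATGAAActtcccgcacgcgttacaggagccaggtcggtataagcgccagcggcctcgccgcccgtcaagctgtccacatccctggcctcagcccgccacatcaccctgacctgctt
These letters were found in 5 of 20 promoters of the list (25%) and in 1.69% of those over the filter. These letters and those of the E-box, CHR, CCAAT, AP-1 and CRE motifs were chosen for the search after the values were seen.

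Immediate early and AP-1 genes moved in part. Of 19 tested, 7 rose (FOS, FOSL1, FOSL2, JUN, JUNB, KLF6 and KLF10) and 1 fell (CCN1) in limma, with a median of 0.19 in shNDRG3 (0.42 with the 60th percentile filter) and 0.18 in shGFP cells. JUN, an AP-1 subunit gene, went from 2867 to 6906 in shNDRG3 cells and from 2290 to 4233 in shGFP cells, and FOS, its partner, from 1744 to 3965 and from 1724 to 2160. FOS was level between the lines at 6 h and higher in shNDRG3 cells at 12 h, with steps of 1.17 and 0.32. It rose by 0.74 (SE 0.13, limma adjusted p = 8.6e-05). KLF6, a zinc finger factor gene, went from 1022 to 2403 (1.21; 0.85) and rose. EGR1 (236 and 229), the prototypic ERK-driven early gene, and MYC (6329 and 6096) did not pass.

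Genes that report ERK signalling had similar median steps in both lines, from different levels. Against shGFP normoxia the list's median was -0.09 at 6 h and 0.18 at 12 h in shNDRG3 cells. In shGFP cells it was 0.32 and 0.56, and this difference between lines was not tested. Of 15 tested, 7 rose and 1 fell (CCND1) in limma, with a median of 0.19 in shNDRG3 and 0.21 in shGFP cells. Under every alternative 4 of the 7 still rose. The ERK phosphatase gene DUSP5 went from 4146 to 6944 (0.74; 0.63) and rose, and PHLDA1 went from 453 to 865 (0.89; 0.62) and rose. The ETS factor gene ETV5 rose over both lines, with 0.25 in shNDRG3 (166 to 203) and 0.69 in shGFP cells. CCND1, the cyclin D1 gene, was at 512 and 334 in shNDRG3 cells, at 1224 and 868 in shGFP cells and at 1719 in normoxia. It fell in both lines (-0.57 and -0.48), and the shNDRG3 levels were the lowest at each time. The feedback inhibitor genes SPRY1 (556 and 532) and SPRY2 (315 and 314) did not pass.

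Secreted angiogenic and inflammatory factors rose in part. Of 19 tested, 10 rose and 0 fell in limma, with a median of 0.24 in shNDRG3 (0.49 with the 60th percentile filter) and 0.27 in shGFP cells. CXCL8, the neutrophil chemokine interleukin 8, went from 206 to 552 in shNDRG3 cells and from 294 to 483 in shGFP cells, with 285 in normoxia, and it rose by 0.98 (SE 0.11, limma adjusted p = 5.74e-07). The shNDRG3 array was thus the lowest for CXCL8 at 6 h and the highest at 12 h. IL1A (475 to 890), IL1B (174 to 320) and VEGFA (377 to 603) rose, and so did PTGS2, the cyclo-oxygenase 2 gene (1240 to 1500), with 0.27 in shNDRG3 and 0.56 in shGFP cells.

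EDN2, the gene of the vasoconstrictor peptide endothelin-2, had the largest step of the knockdown line. Its intensity was 367 at 6 h and 1517 at 12 h in shNDRG3 cells, 272 and 399 in shGFP cells, 131 in normoxia and 579 in shHIF1A cells at 12 h. The shNDRG3 array at 12 h stood above all others of the platform. The steps were 1.96 and 0.50, and EDN2 rose by 1.23 (SE 0.17, limma adjusted p = 9.4e-06). It was the 1 gene of 11825 (0.00846%) whose step was at least 2-fold larger in shNDRG3 than in shGFP cells, and for 0 genes was it 2-fold smaller. That count was 3 with a pseudocount of 8 (2 larger, 1 smaller) and 14 after background subtraction (6 and 8). The difference between lines has no test of its own, since each cell of the design holds 1 array.

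**Figure D2:**
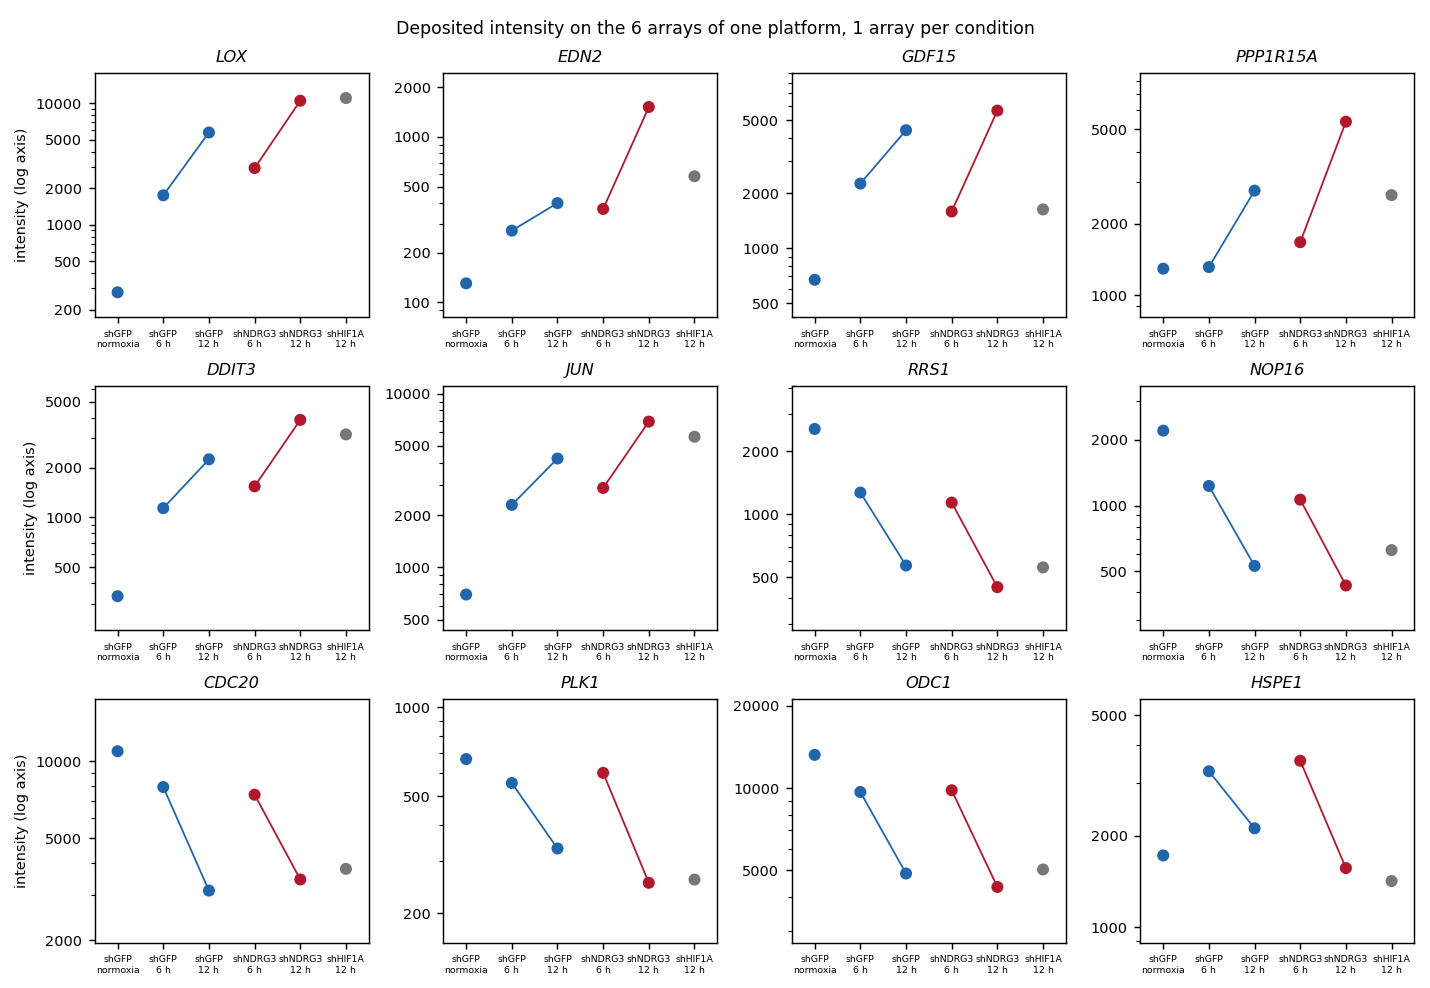
Deposited intensity (log axis) of 12 genes on the 6 arrays of the platform, 1 point an array, with lines joining 6 h to 12 h of the same hairpin line. The shNDRG3 points at 12 h are above those at 6 h for LOX, EDN2, GDF15, PPP1R15A, DDIT3 and JUN and below them for RRS1, NOP16, CDC20, PLK1, ODC1 and HSPE1, and shGFP cells moved the same way in all 12 panels.

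Other genes among the top 15 were of varied function. MB, the gene of the oxygen-binding protein myoglobin, went from 305 to 941 (1.53; 1.28 in shGFP cells). ISG20, an interferon-inducible RNA exonuclease gene, went from 1408 to 3456 (1.28; 1.70), TLE6, of the Groucho co-repressor family, from 610 to 1516 (1.27; 1.43), and CALHM3, a channel subunit gene, from 159 to 429 (1.27; 0.88). All 4 rose. ISG20 did so without its list: of 25 interferon-stimulated genes tested, 4 rose and 4 fell in limma, and the list's median was -0.09, with MX1, an antiviral GTPase gene, falling from 574 to 353. ZFP36 (tristetraprolin), which binds AU-rich elements and speeds the decay of cytokine and early gene transcripts, went from 1483 to 3344 (1.16; 0.77) and rose. INSIG1, which holds the sterol-sensing SREBP complex in the endoplasmic reticulum, went from 1664 to 3821 (1.18; 0.72) and rose.

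INSIG1 likewise moved apart from the pathway it serves. Of 21 sterol synthesis genes tested, 2 rose (INSIG1 and TM7SF2) and 6 fell in limma, with a median of -0.19 in shNDRG3 and -0.11 in shGFP cells. SQLE, the squalene epoxidase gene, went from 1551 to 862 in shNDRG3 cells and from 2181 to 1216 in shGFP cells (-0.82 and -0.83) and fell, as did the sterol isomerase gene EBP (5337 to 3806). Of 17 fatty acid synthesis and storage genes 3 rose, none of which kept its call under every alternative, and 4 fell, the latter being ACLY, ACACA, FASN and ELOVL6, which act in turn from citrate to long-chain fatty acids. FASN, the fatty acid synthase gene, went from 8371 to 5446 (-0.62; -0.70).

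Metallothionein genes, which encode zinc- and copper-binding proteins, rose in both lines, and their steps were smaller in shNDRG3 cells. All 7 tested rose in limma, with medians of 0.53 in shNDRG3 and 0.95 in shGFP cells, and the step was smaller in shNDRG3 cells for 6 of 7. MT1G went from 435 to 966 in shNDRG3 cells (1.09) and from 350 to 1035 in shGFP cells (1.48), MT1X from 29448 to 44969 (0.61) and from 21145 to 40815 (0.95), and MT2A from 35196 to 50699 (0.53) and from 27601 to 54864 (0.99). For these 3 genes the 6 h level was higher in shNDRG3 than in shGFP cells, while at 12 h the lines differed by 0.14 at most. These genes are near-identical copies, so their probes may not separate them. HMOX1, the haem oxygenase 1 gene, had a like course, with 3676 and 4487 in shNDRG3 cells (0.29) against 2180 and 4371 in shGFP cells (0.99).

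Ribosome biogenesis genes fell. Of 24 genes tested, 20 fell and 0 rose in limma, and the medians were -0.53 in shNDRG3 and -0.54 in shGFP cells. RRS1, needed to assemble the large subunit, went from 1136 to 449 in shNDRG3 cells and from 1268 to 570 in shGFP cells, with 2548 in normoxia. It fell by 1.2 on the log2 scale (SE 0.09, limma adjusted p = 2.48e-09). NOP16, a nucleolar protein gene of the same pathway, went from 1064 to 430 (-1.25; -1.17), NOLC1, a nucleolar chaperone of small RNA particles, from 1576 to 758 (-1.03; -1.12) and DKC1, the pseudouridine synthase dyskerin, from 7293 to 3775 (-0.94; -1.02). All 4 genes fell. FBL, the methyltransferase fibrillarin, was the 1 member above 0 in shNDRG3 cells (5806 and 6341, limma adjusted p = 0.997).

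Against shGFP normoxia the ribosome biogenesis list stood at a median of -0.47 at 6 h and -1.08 at 12 h in shNDRG3 cells, and at -0.39 and -1.07 in shGFP cells. The promoter of PNO1, an RNA-binding factor for small subunit assembly that fell from 825 to 481, is shown for its E-box, the letters CACGTG bound by MYC and related factors; it is chr2:68157638-68157937 (plus strand) on GRCh38.p14, and capitals mark CACGTG, which reads the same on both strands.
PNO1: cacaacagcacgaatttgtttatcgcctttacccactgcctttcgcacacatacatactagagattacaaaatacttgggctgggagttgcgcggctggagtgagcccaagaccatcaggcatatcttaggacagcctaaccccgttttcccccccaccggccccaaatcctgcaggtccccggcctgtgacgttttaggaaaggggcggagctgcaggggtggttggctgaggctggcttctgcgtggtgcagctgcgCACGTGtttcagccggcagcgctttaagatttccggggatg
CACGTG was found in 8 of 20 promoters of the list (40%), in 9 of 30 (30%) of the 2-fold higher genes, in 26.7% of the hypoxia-inducible list, which moved the other way, and in 10.2% of those over the filter.

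Other genes among the lowest steps were of varied function. RPUSD2 (1449 to 582) and PUS7 (2759 to 1306) encode members of the pseudouridine synthase family, and LCMT2 (1193 to 538) a tRNA-modifying enzyme. ODC1, which makes putrescine in the first step of polyamine synthesis, went from 9815 to 4352 (-1.17; -0.98), and AMD1, which supplies the aminopropyl donor, from 1672 to 702 (-1.22; -0.83). RTN4IP1, a mitochondrial oxidoreductase gene, had the lowest step, from 1182 to 407 (-1.47; -1.17), HPDL, a mitochondrial dioxygenase-like gene, went from 472 to 201 (-1.12 in each line), and CA2, a cytosolic carbonic anhydrase gene, from 1624 to 671 (-1.24; -1.16). LAMA1, a laminin chain gene, went from 1246 to 518 and PURB, a single-stranded nucleic acid binding protein gene, from 2186 to 936 (-1.20; -0.54). All of these fell in limma. They were chosen by their shNDRG3 steps, which enter that fit, so passing it is not separate evidence for those steps.

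Mitosis genes fell, while DNA replication genes had a median step near 0. Of 26 mitosis and kinetochore genes tested, 25 fell and 0 rose in limma, and the medians were -0.63 in shNDRG3 and -0.64 in shGFP cells. NUSAP1 was the member that did not pass (-0.24; limma adjusted p = 0.0732). CDC20, the activator of the anaphase-promoting complex, went from 7393 to 3451 in shNDRG3 cells and from 7924 to 3122 in shGFP cells, with 10932 in normoxia, and it fell by 1.21 (SE 0.10, limma adjusted p = 2.48e-09). PLK1, the polo-like mitotic kinase, went from 600 to 254 in shNDRG3 and from 554 to 332 in shGFP cells (-1.14 and -0.69). CCNB1, the cyclin B1 gene, went from 1037 to 500 (-1.01; -1.24), and CENPA, the centromeric histone gene, from 955 to 458 (-1.01; -1.30). ASPM, a spindle pole gene that is in no list, went from 3408 to 1575 and fell.

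Of 29 DNA replication genes, 6 rose and 1 fell in limma, with a median of 0.06 in shNDRG3 and 0.02 in shGFP cells, and 3 of the 6 still rose under every alternative. CDT1, a licensing factor gene, went from 2134 to 2743 and rose, and RFC3, a clamp loader subunit gene, from 774 to 623 and fell. Among G1 cyclins and CDK inhibitors 4 of 19 rose, 1 of them (CDKN1A) under every alternative, and 3 fell. CDKN1A, which encodes the inhibitor p21, went from 3412 to 5402 (0.66; 0.59) and rose. In RNA from whole cultures, fewer cells in mitosis and less of these transcripts per cell cannot be told apart. The promoters of CDC20 (chr1:43358731-43359030 (plus strand)) and PLK1 (chr16:23678639-23678938 (plus strand)), on GRCh38.p14, are shown because they hold both letter groups typical of G2 and M genes. Capitals mark TTTGAA (the CHR core) and CCAAT, either strand, so that TTCAAA as printed is a CHR on the other strand.
CDC20: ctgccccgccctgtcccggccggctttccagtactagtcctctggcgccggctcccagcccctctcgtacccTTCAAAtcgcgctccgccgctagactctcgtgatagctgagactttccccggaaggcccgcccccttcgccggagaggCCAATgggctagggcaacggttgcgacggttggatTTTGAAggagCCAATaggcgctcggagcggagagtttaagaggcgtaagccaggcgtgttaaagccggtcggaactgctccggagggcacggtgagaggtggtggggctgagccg
PLK1: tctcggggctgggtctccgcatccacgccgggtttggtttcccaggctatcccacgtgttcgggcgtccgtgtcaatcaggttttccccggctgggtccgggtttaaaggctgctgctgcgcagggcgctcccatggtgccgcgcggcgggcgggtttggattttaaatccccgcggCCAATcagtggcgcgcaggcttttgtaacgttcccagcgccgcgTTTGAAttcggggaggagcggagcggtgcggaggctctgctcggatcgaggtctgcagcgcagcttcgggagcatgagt
Both letter groups were found together in 13 of 21 promoters of the mitosis list (61.9%) and in 4.22% of those over the filter.

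Heat shock chaperone genes fell. Of 14 tested, 11 fell and 0 rose in limma, with medians of -0.49 in shNDRG3 and -0.50 in shGFP cells, and all 14 steps in shNDRG3 cells were below 0. HSPA1A, the inducible HSP70 gene, went from 1914 to 1054 in shNDRG3 and from 2053 to 1142 in shGFP cells, with 8157 in normoxia, so most of its difference from normoxia was already there at 6 h. HSPA1A and HSPA1B are near-identical and their probes may not separate them. HSPE1, the mitochondrial co-chaperonin HSP10, was at 1724 in normoxia, 3541 at 6 h and 1566 at 12 h in shNDRG3 cells, and at 3270 and 2119 in shGFP cells. It fell by 0.89 (SE 0.11, limma adjusted p = 1.07e-06), with -1.16 in shNDRG3 and -0.62 in shGFP cells. Its partner HSPD1 (HSP60) was at 10715 and 10344 and did not pass.

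The remaining lists gave mixed counts, against the background of 25.2% of genes that passed. Of 16 autophagy and mitophagy genes, 8 rose and 0 fell in limma, and 6 of the 8 still rose under every alternative. BNIP3 and BNIP3L are also in the hypoxia-inducible list. ATG14, a subunit of the autophagic lipid kinase, went from 1068 to 1516. Of 33 respiratory chain and ATP synthase genes 1 rose (NDUFV1) and 1 fell (ATP5MC1, from 5400 to 3183 in shNDRG3 and from 2127 to 861 in shGFP cells), with a median of -0.01, and the NDUFV1 call was lost under an alternative (highest limma adjusted p = 0.0669). Of 22 TCA cycle genes 4 rose and 4 fell, 2 of the latter under every alternative, with IDH2, the mitochondrial NADP-dependent isocitrate dehydrogenase gene, going from 522 to 977 (0.86; 0.82). Of 20 NRF2-linked antioxidant genes 2 rose and 2 fell, of 15 aminoacyl-tRNA synthetases 3 rose and 4 fell, and of 12 histone genes 3 rose and 1 fell.

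**Figure D3:**
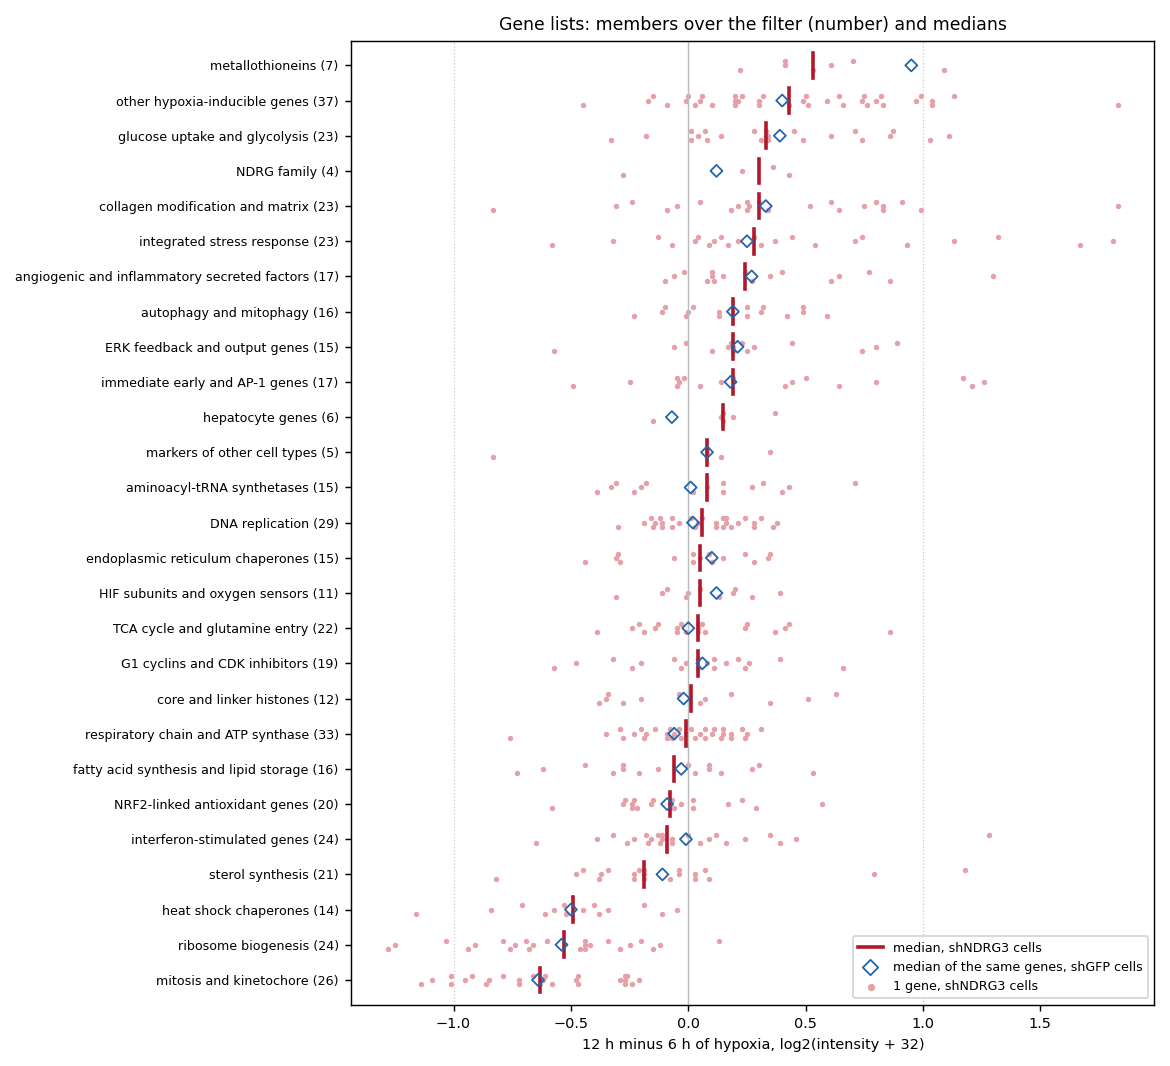
Steps in shNDRG3 cells (12 h minus 6 h, log2(intensity + 32), x axis) of the genes over the filter in each of 27 lists, 1 small point a gene, with the list's median in shNDRG3 cells as a bar and that of the same genes in shGFP cells as a diamond; the number of genes is given in parentheses. Metallothioneins and hypoxia-inducible genes lie highest (medians 0.53 and 0.43), mitosis, ribosome biogenesis and heat shock genes lowest (-0.63, -0.53 and -0.49), and bar and diamond differ most for metallothioneins (0.53 and 0.95).

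The starting point of each gene at 6 h was read against shGFP normoxia. As a caution, the difference at 6 h and the step share the shNDRG3 array at 6 h. Likewise the difference at 12 h and the step share the shNDRG3 array at 12 h. Genes chosen by their step were thus favoured to stand apart from normoxia at 12 h. The share of all genes 2-fold from normoxia was not computed. Of the 34 genes 2-fold higher, 17 already stood at least 2-fold above normoxia at 6 h and 32 did so at 12 h. Of the 23 lower genes, 22 were below normoxia at 6 h but only 3 by 2-fold, and 22 were at least 2-fold below it at 12 h, the exception being HSPE1. At 1.5-fold, 101 genes (0.89%) were higher at 6 h and higher again at 12 h, and 56 (0.494%) were lower and lower again. A further 141 (1.24%) differed from normoxia by under 1.5-fold at 6 h and were then higher, and 215 (1.9%) were then lower. Another 261 (2.3%) were higher and 175 (1.54%) lower at 6 h with a step under 1.5-fold. Genes that turned were 4 (0.0353%) higher and then lower and 4 (0.0353%) lower and then higher. Whether that is fewer than the steps of all genes would give was not tested. In shNDRG3 cells ATP5MC1, FSTL3, HSPE1 and LOC730417 were higher at 6 h and then lower. PHLDA1, CREBZF and CMKLR2 were among those lower and then higher. ATP5MC1 was at 2557 in shGFP normoxia and at 2127 in shGFP cells at 6 h, against 5400 in shNDRG3 cells. CMKLR2 at 6 h differed from normoxia by -0.68 in shNDRG3 and by 0.06 in shGFP cells. For these genes the line and hypoxia cannot be told apart in the turn. FSTL3, a secreted antagonist of activins, went from 2282 in normoxia to 5291 and 3443 in shNDRG3 cells and to 5594 and 3781 in shGFP cells. PHLDA1 went from 919 to 453 and 865 in shNDRG3 cells, and to 741 and 1160 in shGFP cells.

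**Figure D4:**
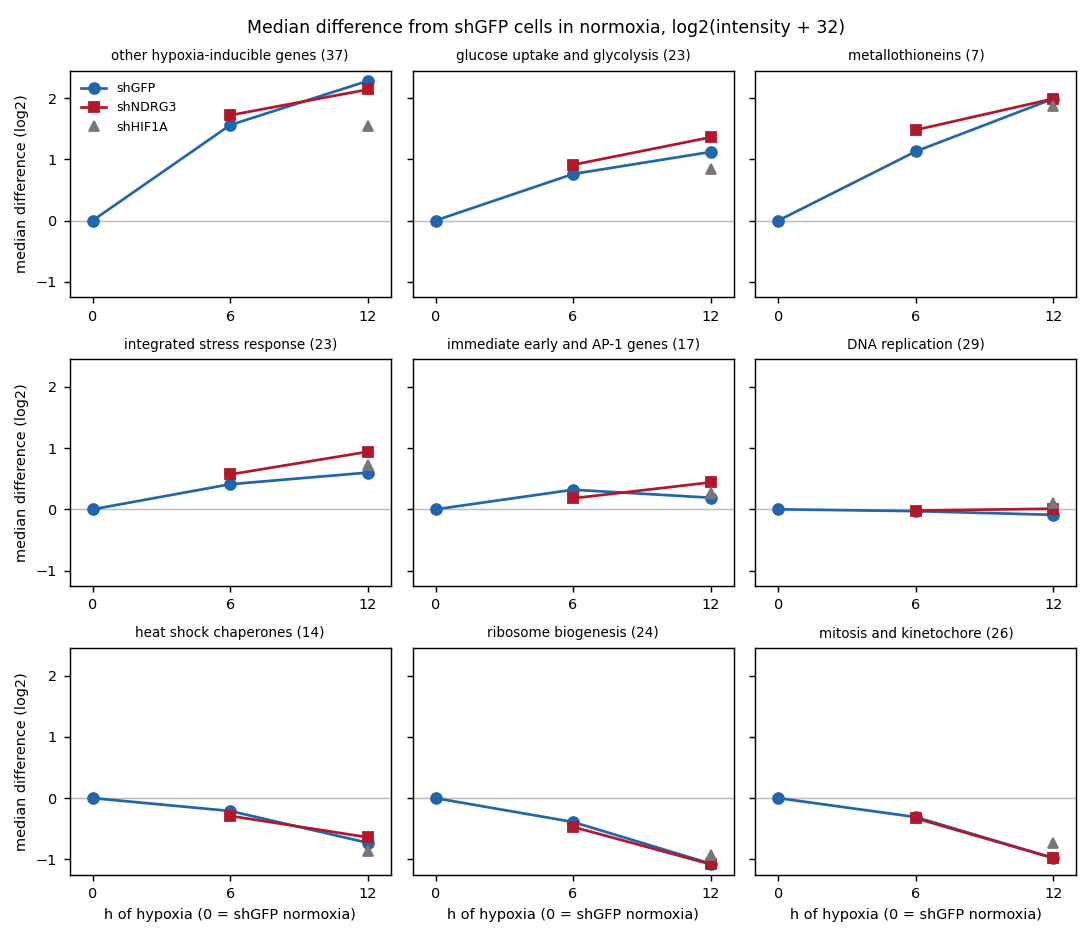
Median difference from shGFP cells in normoxia (y axis, log2(intensity + 32)) of 9 gene lists at 6 h and 12 h of hypoxia (x axis, h, with 0 standing for shGFP normoxia) in shGFP, shNDRG3 and, at 12 h, shHIF1A cells, 1 array a point. The hypoxia-inducible list goes from 1.72 to 2.14 in shNDRG3 cells, mitosis from -0.33 to -0.98 and ribosome biogenesis from -0.47 to -1.08, while DNA replication stays near 0; every point shares the normoxia array.

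Where the knockdown line's step departed most from the control line's, the genes were few and mixed. Beside EDN2, GDF15 and FOS, with differences of 1.45, 0.85 and 0.85, the highest were DOCK11 (0.59 in shNDRG3 and -0.25 in shGFP cells), RSF1 (0.39 and -0.45), TICAM1 (0.47 and -0.33), CDC5L (0.39 and -0.39) and HIP1 (0.08 and -0.69). The lowest were PALS1, a cell polarity gene (-0.14 and 0.77), S100A14 (-0.07 and 0.81), NBPF20 (-0.45 and 0.39), the aquaporin gene AQP3 (-0.66 and 0.17), the DNA sensor gene IFI16 (-0.90 and -0.08), CCN2 (-0.25 and 0.57), ZIC5 (-0.45 and 0.35) and E2F1 (-0.32 and 0.46). IFI16 went from 1258 to 659 in shNDRG3 cells and was at 892 and 842 in shGFP cells, with 1189 in normoxia. A large difference can come from an array of either line. The lowest array of the platform was shGFP at 6 h for PALS1 (559), CCN2 (141) and E2F1 (173). It was shNDRG3 at 12 h for NBPF20 (2207), AQP3 (364), IFI16 and ZIC5 (106), and for S100A14 the highest was shGFP at 12 h (625). ZIC5 lay near the filter value. At 1.5-fold, 35 genes (0.296%) had a larger and 47 (0.397%) a smaller step in shNDRG3 cells (0.693% together), and 0 genes had steps of at least 1.5-fold in opposite directions in the 2 lines, against 281 in the same direction. With 1 array behind each level, none of these differences between lines was tested.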

How the data were processed

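Total RNA (200 ng, column-purified) was amplified and biotin-labelled for Illumina arrays, per the labels' protocols; scanner, software and normalization are not stated in these sources. The authors deposited intensity on a linear scale, as a gene-level table (18153 genes, 9 arrays) and a probe value table per platform. On the 6-array platform (29377 probes) sorted probe values differed by at most 0.0323 on the log2 scale, so the values appear quantile normalized, and a shift in total RNA could not be seen. The lowest probe value was 58, so background had not been subtracted. Precision is set by signal over background.

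Groups came from the sample titles, and 0 value columns belonged to no sample. Names were updated through RefSeq synonyms (15058 current, 2301 renamed, 794 kept as filed); 12770 genes equalled 1 probe (relative tolerance 0.0002, at least 0.02). Probe positions were not used here. No value was normalized further. The additive fit used lmFit and eBayes of limma 3.58.1 (R 4.3.3). In simulated data over the 11825 genes it recovered 100% of 100 genes changed by a log2 of 1 and 100% of 100 changed by 1.5-fold, and it called 21 unchanged genes. Those data were drawn from the fit's own variance model, with independent genes and the same step in both lines. They hold no handling shared by the 12 h arrays. The simulation therefore checks that the fit runs as intended and cannot give the error rate in the real arrays.

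The comparison, the 27 gene lists and the tests were chosen with earlier results of these data known, and no p was adjusted over a list alone. Named genes were NDRG3, HIF1A, EPAS1, NDRG1 and HIF subunits, the 15 largest steps in each direction in shNDRG3 cells, the 8 largest differences between the steps of the lines in each direction, the 8 largest in each direction past limma, and up to 4 members of each list with the largest steps; provisional names were left out. Members of a list named beyond these, turning genes and genes near the 2-fold line were chosen after their values were seen. Genes of the lists that the table lacks under these names are AK4, DDX58, FAM162A, HILPDA, HSPA6, CDK1, FDPS, HSD17B7, PLIN2, NDUFA4L2, HBA1, USP18, NOP56, NOP58, NOP2, NOP14, WDR43, H2BC4, H2BC8 and 4 tRNA synthetases. A turning gene is not reported here. Promoter windows came from RefSeq (GRCh38.p14). Alternatives covered filter, pseudocount, centring, background, probe summary, fold and unit of counting.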

Additional observations from a re-analysis of the deposited data

How the results depend on the processing

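The counts at 2-fold depend on how dim genes are treated. In shNDRG3 cells the higher pseudocount (32 raised 4-fold) left 37 genes, 13 of them lower, background subtraction gave 53 higher, and probes in place of genes gave 91 (53 higher, 38 lower). In shGFP cells background subtraction gave 67 (26 lower), and probes gave 25 lower. At 1.5-fold the counts were 521 (246 and 275) in shNDRG3 and 500 (264 and 236) in shGFP cells, and at 3-fold 4 (4 and 0) and 2 (2 and 0). The difference between the lines' steps passed 2-fold for 3 genes (2 higher, 1 lower) with a pseudocount of 8, for 14 (6 and 8) after background subtraction, and for 82 (35 and 47) at 1.5-fold and 0 at 3-fold. Among genes equal to 1 probe limma called 1902 (934 and 968), with fewer genes tested (8144). In that setting the prior degrees of freedom were infinite, so 1 variance served all genes. In the other settings they ran from 12.1 to 53.9. Over all alternatives limma called between 1902 and 3088, with unlike numbers of genes tested and unlike pooling of variance. Of 189 list medians recomputed 4 moved by over 0.14, the spread of the step between lines: immediate early genes to 0.42 and secreted factors to 0.49 with the 60th percentile filter, G1 cyclins to -0.12 among genes equal to 1 probe, and hepatocyte genes to -0.03 with no filter. Of 901 values of named genes 28 moved by more than that, 13 of them after background subtraction and 15 with the higher pseudocount, and 0 changed sign. Of 103 limma calls among named genes, 97 held under every alternative that tested the gene and 6 did not. Most lists also held calls that were lost under an alternative, and not all of these are named above. Where the construction does not show it, the cause was not tested. The additive fit already sets 6 h against 12 h within each line. No pairing beyond that was possible because no replicate numbers exist to pair by, every group being 1 array. Leaving out any of the 4 arrays of the additive fit leaves no residual degree of freedom.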

Other observations

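Gene groups beyond those above were put together after their values were seen, so they are a description. Of 9 polyamine metabolism genes, ODC1, AMD1 and the spermidine synthase gene SRM (3951 to 2392 in shNDRG3 cells) fell in limma, SAT1, which acetylates polyamines for breakdown and export, went from 2641 to 5206 and rose, and the antizyme gene OAZ1 was at 47964 and 45201. Of 13 pseudouridine synthase genes 6 were at least 1.2-fold lower at 12 h than at 6 h in shNDRG3 cells (14.4% of all genes were) and 0 higher; PUS1 (958 to 580), PUS7, RPUSD2 and DKC1 fell. Of 7 genes of the endothelin system, EDN3, EDNRA and EDNRB were not in the limma test. Among the others EDN2 rose and the processing enzyme gene ECE2 (779 to 554) fell. EDN1 was at 117 and 126 and EDN3 at 86 and 81, under the filter value like the receptor genes EDNRA and EDNRB, and ECE1, another processing enzyme gene, was at 158 and 204, with a step of 0.31 in shNDRG3 and -0.01 in shGFP cells.

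Genes of rapid RNA turnover also differed among relatives. ZFP36 and ZFP36L1 (715 to 990 in shNDRG3 cells) rose, whereas ZFP36L2 (597 to 441) fell. DUSP1, a phosphatase of stress-activated kinases, went from 4730 to 9778 (1.04; 0.68 in shGFP cells) and rose, and CSRNP1 went from 1385 to 3095 and rose. BTG1 (8194 and 8292) and IER3 (17000 and 19424) did not pass.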
